A study of Mus musculus with 2 samples.

Results

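Deep hepatocytes outside the pericentral rim were taken as cell barcodes of high RNA content that carried hepatocyte mRNAs, few leukocyte, osteopontin or glutamine synthetase reads and a limited share of mitochondrial RNA. They were chosen by a rule on measured values: at least 5000 unique molecular identifiers (UMIs, 1 per captured mRNA molecule), at most 25% of UMIs from the mitochondrial genome, at most 1 UMI of Ptprc, at least 5% of UMIs from 10 hepatocyte genes (Apoa1, Apoa2, Apoc3, Ttr, Serpina1c, Trf, Fgb, Ahsg, Hp and Fabp1), and fewer than 5 UMIs per 10000 of each of Glul and Spp1. The rule kept 1013 of 32316 barcodes in the series. The barcodes end in suffix 1 or suffix 2, 1 for each of 2 libraries. With suffix 1, 505 of 17313 barcodes were members, a share of 2.917% with an exact binomial interval of 2.671 to 3.178%. With suffix 2, 508 of 15003 were members, a share of 3.386% (3.102 to 3.688%). These intervals cover counting error only.

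The study asked how loss of the transcription factor CEBPA in hepatocytes affects the livers of mice on a diet that promotes steatohepatitis. Its single-cell samples were 1 Cebp_KO and 1 Cebp_WT liver sample, from mice fed a 40% HFCFD (rich in fat, cholesterol and fructose) for 2 weeks, and up to 6000 cells were targeted per lane, and whether a lane held cells of 1 mouse or of several was not given in the sources used here. In the study's line, floxed Cebpa alleles are deleted by a Cre recombinase under the albumin promoter, or a tamoxifen-dependent form of it, on a C57BL/6N background, so deletion is directed to hepatocytes and not to the other cells of the liver. Perfused and digested livers were enriched for cells on Percoll before loading. The labels and files used here do not tie a suffix to a genotype. The libraries are therefore named by suffix and neither is called knockout or wild type. With 1 library per suffix there was no replicate, and no test between them was made.

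Hepatocytes secrete most plasma proteins, clear drugs and hormones, make bile acids from cholesterol and turn ammonia into urea. These tasks are divided along the lobule: cells near the portal vein favour urea synthesis, gluconeogenesis and protein secretion, whereas cells near the central vein favour drug metabolism, and the last layer around the vein makes glutamine with the enzyme encoded by Glul. CEBPA is a leucine zipper transcription factor that is abundant in mature hepatocytes and drives genes of secretion and intermediary metabolism, whereas SPP1 (osteopontin) is a secreted matrix protein.

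The members held 10248403 UMIs with suffix 1 and 7511048 with suffix 2. A member had a median of 19860 UMIs (range, 5003 to 49420) with suffix 1 and of 12628 (5002 to 67000) with suffix 2. At 20000 UMIs or more there were 250 members with suffix 1 and 134 with suffix 2. The depth therefore differed between the libraries. When each member was thinned to 5000 UMIs, the median number of genes per cell was 1617 and 1565. Under the limit of 25%, the mitochondrial share of members had medians of 15.1% and 15.4% and lower quartiles of 2.5% and 5.6%. Few members lay between 5% and 10% (19 and 47). Over all barcodes the medians were 4.07% and 41.3%. A total of 81 barcode sequences occurred with both suffixes, none as a member in both. T and B cell droplets served for comparison, since lymphocytes make no albumin and Alb UMIs in them come from free RNA. For other genes their UMIs can be free RNA or the lymphocytes' own. These droplets, taken with under 5% of UMIs from the 10 hepatocyte genes, held 54.64 and 55.0 Alb UMIs per droplet (953 and 859 droplets, median 4931 and 4418 UMIs), against 741.9 and 612.1 per member. Alb was not part of the rule, and as a mean over members it was far above those droplets. That mean rested mostly on members of more than 10% mitochondrial UMIs. With suffix 1, the 143 members of at most 5% held 11724 Alb UMIs in all, against 358027 in the 343 of more than 10%. With suffix 2, these sums were 38821 in 122 members and 254801 in 339.

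**Figure D1:**
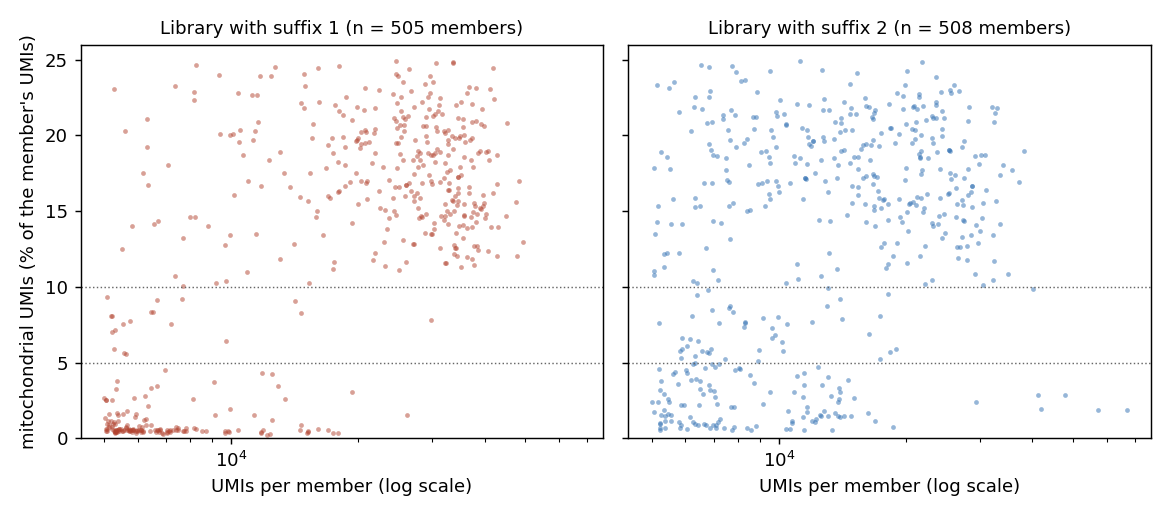
Mitochondrial share (percent of UMIs, vertical axis) against total UMIs (horizontal axis, log scale) for each member, with suffix 1 on the left and suffix 2 on the right. The dotted lines at 5% and 10% separate 143 and 122 members of low share from 343 and 339 members of higher share.

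The limits of the rule cut through continuous distributions. The members nearest to the UMI minimum had 5003 and 5002 UMIs, and the nearest droplets below it 4998 and 4955. At the mitochondrial limit the nearest member and non-member had 24.935% and 25.033% with suffix 1 and 24.947% and 25.101% with suffix 2. For the 10 hepatocyte genes these values were 5.0068% and 4.9576% with suffix 1, and 5.0292% and 4.95% with suffix 2. The mitochondrial limit alone removed 73 droplets with suffix 1 and 350 with suffix 2. The Spp1 limit alone removed 130 with suffix 1 and 11 with suffix 2, with values of 4.9964 inside and 5.0284 outside per 10000 UMIs (suffix 1) and of 4.6394 and 5.9996 (suffix 2). In contrast, the Glul limit alone removed only 7 and 2 droplets, so leaving out the glutamine synthetase layer hardly altered the set. Glul had no UMI in 256 members with suffix 1 and in 441 with suffix 2, and Spp1 had none in 96 and 365.

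By summed level, given as the share of all UMIs of a library's members (CPM, counts per 1000000), the most abundant nuclear mRNAs encoded secreted proteins and lipid carriers. Alb was at 36560 CPM with suffix 1 and 41400 with suffix 2. Apoa2 and Fabp1, both used by the rule, were at 23670 and 22150 CPM with suffix 1 and at 18630 and 19170 with suffix 2. Apoc1, a component of triglyceride-rich lipoproteins, was nearly level at 20430 and 20000 CPM, whereas Apoe was lower with suffix 1, at 11170 against 18540 CPM. Mup20, which encodes a male urinary pheromone protein, matched Alb with suffix 1 at 36550 CPM and was at 16100 with suffix 2. The Mup genes are near-identical copies, so reads may have been split among them and the level of a single copy is uncertain.

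Between the libraries most mRNAs were close. Of the 1132 genes that reached 100 CPM with 1 suffix or the other, with mitochondrial, ribosomal protein and rule genes left out, the median log2 ratio (suffix 1 over suffix 2, 3 UMIs added to each sum) was -0.028. At least 2-fold higher with suffix 1 were 36 genes (3.18%), and at least 2-fold higher with suffix 2 were 32 (2.83%). At a lower minimum of 20 CPM these counts were 108 (2.39%) and 92 (2.04%) of 4518 genes, with a median log2 ratio of 0.0143. The intervals given with CPM values are exact 95% Poisson intervals, which cover counting error only and not the spread between mice.

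**Figure D2:**
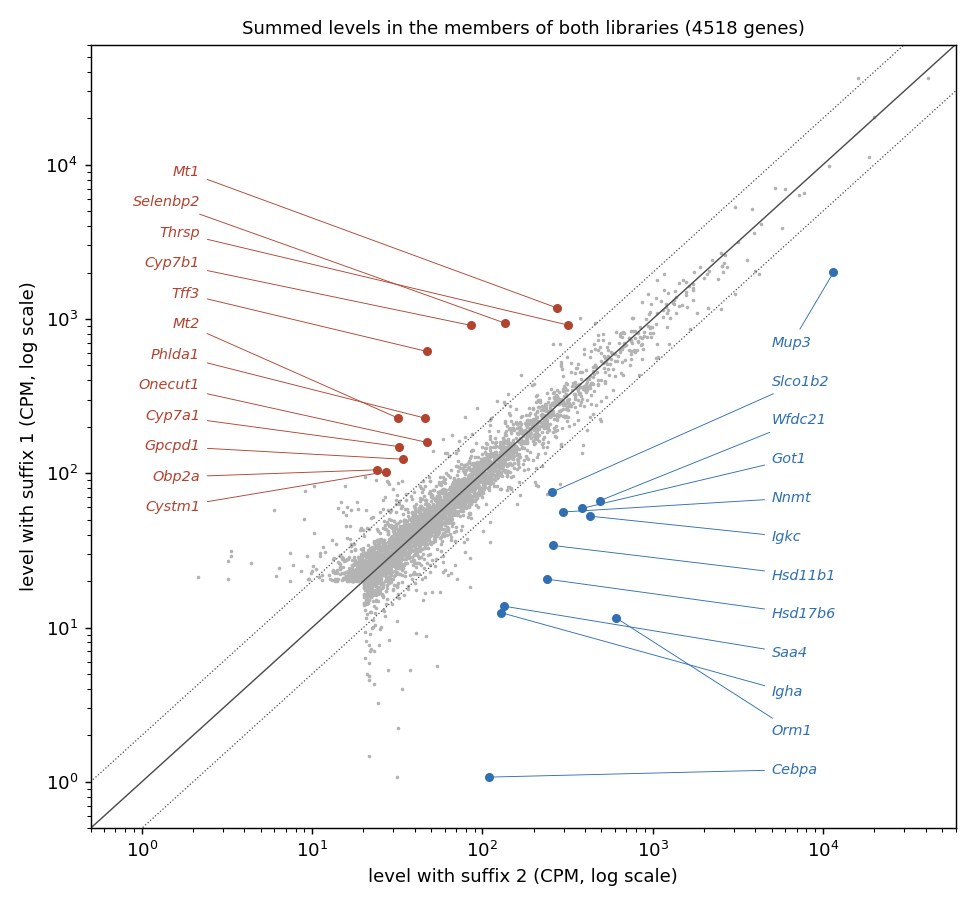
Summed level of 4518 genes in the members with suffix 2 (horizontal axis, CPM, log scale) and suffix 1 (vertical axis, CPM, log scale), with equality as a solid line and 2-fold differences as dotted lines. Most genes lie between the dotted lines, and the 24 named genes (red, higher with suffix 1; blue, higher with suffix 2) lie outside, with Cebpa and Orm1 farthest on the suffix 2 side and Tff3 and Cyp7b1 on the suffix 1 side.

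Cebpa itself (7:35119293-35121928, mm10) differed most. Its sum was 11 UMIs with suffix 1, or 1.073 CPM (0.5358 to 1.92), and 826 UMIs with suffix 2, or 110.0 CPM (102.6 to 117.7). At least 1 UMI was seen in 11 members (2.18%) with suffix 1 and in 362 (71.3%) with suffix 2, and the median member had 0 and 103.8 CPM. At a common depth of 5000 UMIs, 0.396% of members with suffix 1 held a Cebpa UMI, below the 5.38% of T and B droplets of that library, whereas 40.9% did with suffix 2, above the 9.42% of its T and B droplets. Per droplet, the members with suffix 1 held 0.0218 Cebpa UMIs and the T and B droplets 0.0567, against 1.63 and 0.123 with suffix 2. The suffix 2 sum was 80.8-fold higher (log2 ratio, -6.34). Other hepatocyte transcription factors did not share this size of difference. Hnf4a was at 198.9 and 204.8 CPM, and Cebpb, the family member linked to acute-phase and gluconeogenic genes, was at 195.2 and 152.2 CPM. Cebpg, which encodes a partner without an activation domain, was higher with suffix 1, at 72.89 against 35.55 CPM, as were Foxa2 (44.2 and 19.44 CPM) and Onecut1 (158.4 and 47.4 CPM), both liver developmental factors. Of 18 measured transcription factors, 4 were at least 2-fold higher with suffix 1 (Cebpg, Foxa2, Onecut1 and Dbp) and 1 with suffix 2 (Cebpa), with a median log2 ratio of 0.151. Over all 4518 genes of at least 20 CPM these shares were 2.39% and 2.04%.

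Several secreted proteins of the acute-phase response were higher with suffix 2. Orm1, which encodes an acid glycoprotein of plasma, was at 11.51 CPM with suffix 1 and 612.4 with suffix 2, a 51.9-fold difference. It was seen in 13.5% of members with suffix 1 (median 0 CPM, highest 330.8) and in 95.7% with suffix 2 (median 572.6 CPM, highest 2052). After thinning to 5000 UMIs these shares were 5.54% against 2.37% in T and B droplets with suffix 1, and 86.4% against 46.8% with suffix 2. No member with suffix 1 reached the median of those with suffix 2. Saa4, the constitutive serum amyloid A apolipoprotein, was at 13.76 and 133.7 CPM (log2 ratio, -3.25), and was seen in 20.6% and 72.2% of members. Lbp, which binds bacterial lipopolysaccharide, was at 16.98 and 50.33 CPM. The inducible genes Saa1 (155.8 and 224.3 CPM) and Saa2 (41.37 and 67.77 CPM) differed by less than 2-fold, and reads may be split between these near-identical copies. In the acute-phase list 3 of 21 measured genes were at least 2-fold higher with suffix 2 (Saa4, Orm1 and Lbp) and 3 with suffix 1 (Mt1, Mt2 and Steap4), against 2.04% and 2.39% of all genes. The median log2 ratio of that list was -0.3 over all members, and -1.26 in members of at most 5% mitochondrial UMIs, where 15 of the 21 genes were at least 2-fold higher with suffix 2. Of all 4518 genes of at least 20 CPM, 9.21% were at least 2-fold higher with suffix 2 in those members, and 5.4% with suffix 1. Hpx, which encodes the haem-binding hemopexin, was just short of the 2-fold line at 2047 and 4008 CPM. Wfdc21, a secreted whey acidic protein domain gene, was at 66.35 and 488.9 CPM.

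C/EBP factors recognise palindromic sites with the core TTGCGCAA, and TTGCNNAA was searched as a looser form, on both strands, in RefSeq promoter windows (250 bases before to 50 after the start, GRCm38.p6). The strict form was in 0.183% and the loose form in 10.8% of 32851 windows. Of the 12 named genes higher with suffix 2, 7 had a window, and the Saa4 window alone among these held the loose form, at 2 places beginning at positions -245 and -52 from the start. Of the 12 higher with suffix 1, 6 had a window, and the Mt2 window alone among these held it. No window was on hand for Orm1. The Saa4 window is printed because that gene was among the most different secreted protein genes and its window holds these letters, with the matches in capitals (chr7:46732554-46732853, minus strand):
Saa4: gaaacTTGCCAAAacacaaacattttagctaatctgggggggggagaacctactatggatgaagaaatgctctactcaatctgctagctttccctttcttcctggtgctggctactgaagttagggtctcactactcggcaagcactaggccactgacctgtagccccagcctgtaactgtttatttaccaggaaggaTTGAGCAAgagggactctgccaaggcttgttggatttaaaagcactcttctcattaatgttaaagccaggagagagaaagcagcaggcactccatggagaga
A match of these letters is a description of the sequence and not evidence of binding.

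Among the genes higher with suffix 2 were also single enzymes of steroid and amino acid metabolism. Hsd17b6, a steroid and retinol dehydrogenase, was at 20.59 and 239.9 CPM (log2 ratio, -3.52). Hsd11b1, which regenerates active glucocorticoid, was at 34.05 and 258.2 CPM (log2 ratio, -2.91), and its T and B droplets were at 135 and 181 CPM. Per droplet, Hsd11b1 had 0.691 UMIs in members and 0.831 in T and B droplets with suffix 1, and 3.82 and 1.04 with suffix 2. Got1, the cytosolic aspartate aminotransferase, was at 59.23 and 385.2 CPM and was seen in 53.7% and 95.3% of members, with medians of 28.06 and 368.4 CPM. Nnmt, which methylates nicotinamide, was at 56.11 and 298.8 CPM. Among 30 urea cycle and amino acid genes, 3 were at least 2-fold higher with suffix 2, namely Got1, Hal (histidine breakdown, 219.7 and 494.7 CPM) and Cbs (transsulfuration, 192.1 and 413.1 CPM), and none with suffix 1. Over all genes these shares were 2.04% and 2.39%. The core urea cycle genes Cps1 (1578 and 1730 CPM) and Ass1 (2188 and 2741 CPM) were close. Slco1b2, an organic anion uptake carrier, was at 75.43 and 256.2 CPM.

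The urinary protein genes went in both directions. Mup3 was at 2001 CPM with suffix 1 and 11520 with suffix 2 (log2 ratio, -2.52). A member had a median of 1582 CPM (quartiles, 949.3 and 2831) with suffix 1 and of 11410 (9033 and 14970) with suffix 2, so the quartile ranges did not overlap. Mup20 went the other way (log2 ratio, 1.18). Obp2a, which encodes an odorant-binding lipocalin, was at 105.2 and 23.96 CPM, and Socs2, the feedback inhibitor of growth hormone signalling, was at 27.03 and 3.195 CPM. Elovl3, a fatty acid elongase, was higher with suffix 2, at 37.81 against 5.269 CPM. In the list of growth hormone and sex-dependent genes 4 of 18 were at least 2-fold higher with suffix 1 and 3 with suffix 2 (2.39% and 2.04% of all genes), with a median log2 ratio of 0.0794. In members of at most 5% mitochondrial UMIs these counts were 3 and 6 of 18 (5.4% and 9.21% of all genes), with a median of -0.704. In CPM, Socs2 was below the level in T and B droplets with both suffixes (45.1 and 53.6 CPM). Per droplet, members held 0.549 Socs2 UMIs against 0.277 in T and B droplets with suffix 1, and 0.0472 against 0.307 with suffix 2.

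On the suffix 1 side the largest difference among genes of at least 100 CPM was in Tff3 (17:31125306-31129646), which encodes a small mucosal repair peptide. It was at 615.4 CPM with suffix 1 and 47.4 with suffix 2, a 12.9-fold difference, and was seen in 91.5% and 30.7% of members. The median member had 433.4 CPM (quartiles, 192.1 and 755) with suffix 1 and 0 with suffix 2. At 5000 UMIs the shares were 79.4% and 15.0%, against 37.8% and 4.26% in T and B droplets. Spink1, a secreted trypsin inhibitor, was at 76.3 and 9.053 CPM. Sox9, a factor of biliary and progenitor cells, was on the other side, at 6.342 and 20.5 CPM. Hence the list of biliary and fetal genes was divided, with 3 of 7 at least 2-fold higher with suffix 1 (Tff3, Spink1 and Onecut1), 1 with suffix 2 (Sox9) and a median log2 ratio of 0.086. Over all genes these shares were 2.39% and 2.04%. Phlda1, a pleckstrin homology-like domain gene, was at 227.7 and 46.07 CPM.

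Of the bile acid synthesis genes, the hydroxylases Cyp7b1 and Cyp7a1 differed most. Cyp7b1, the oxysterol hydroxylase of the alternative pathway, was at 908.6 and 85.61 CPM (log2 ratio, 3.40). Its median in a member was 435.7 CPM with suffix 1 and 36.04 with suffix 2, the highest member reached 13880 and 1758 CPM, and the quartile ranges (164.7 to 1018, and 0 to 124.4 CPM) did not overlap. Cyp7a1, the rate-limiting enzyme of the classical pathway, was at 148.8 and 32.49 CPM and was seen in 57.6% and 19.1% of members. The 12-alpha hydroxylase gene Cyp8b1 was nearer, at 189.2 and 138.5 CPM. The exporter gene Abcb11 was at 161.1 and 162.7 CPM, and the uptake carrier gene Slc10a1 at 239.3 and 284.2 CPM. Akr1d1, which reduces the steroid nucleus of bile acid intermediates, was higher with suffix 2, at 100.3 against 42.54 CPM. Of 21 genes of bile acid synthesis and transport, 2 were at least 2-fold higher with suffix 1 (Cyp7a1 and Cyp7b1) and 2 with suffix 2 (Akr1d1 and Slco1b2), against 2.39% and 2.04% of all genes, with a median log2 ratio of -0.0133. In members of at most 5% mitochondrial UMIs, 2 of 21 were higher with suffix 1 and 6 with suffix 2 (5.4% and 9.21% of all genes), with a median of -0.549.

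The metallothionein genes, whose products bind zinc and copper, were higher with suffix 1. Mt1 was at 1179 and 274.4 CPM and Mt2 at 227.8 and 31.95 CPM (log2 ratios, 2.10 and 2.82). For Mt1 the median member had 962.8 CPM (quartiles, 530.7 and 1655) and 194.4 CPM (75.34 and 391.3). In the list of iron and metal genes 2 of 14 were at least 2-fold higher with suffix 1 (Mt1 and Mt2) and 1 with suffix 2 (Hamp2, 85.48 and 284.6 CPM, a near-copy of Hamp), with a median log2 ratio of -0.0689. Over all genes these shares were 2.39% and 2.04%. Mt1 and Mt2 are neighbours on chromosome 8 (Mt2, 94172664-94173568, and Mt1, 94179082-94180327, both on the plus strand). Metallothionein promoters are known for metal response elements, bound by the zinc-sensing factor MTF1, and their core was searched as TGCGCNC and TGCACNC on both strands. The former was in 15.4% and the latter in 12.6% of the 32851 windows. At least 3 places were found in 1.97% of windows, and in both of these, 4 in Mt2 and 3 in Mt1. The windows are shown because the neighbouring genes differed in the same direction, with the matched letters in capitals (Mt2, chr8:94172368-94172667; Mt1, chr8:94178839-94179138):
Mt2: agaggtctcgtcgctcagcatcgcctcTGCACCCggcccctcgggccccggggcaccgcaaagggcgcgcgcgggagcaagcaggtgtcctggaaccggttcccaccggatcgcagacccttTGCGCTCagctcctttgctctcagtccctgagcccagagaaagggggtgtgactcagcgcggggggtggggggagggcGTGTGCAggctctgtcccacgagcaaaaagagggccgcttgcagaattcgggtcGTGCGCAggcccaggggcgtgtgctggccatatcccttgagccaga
Mt1: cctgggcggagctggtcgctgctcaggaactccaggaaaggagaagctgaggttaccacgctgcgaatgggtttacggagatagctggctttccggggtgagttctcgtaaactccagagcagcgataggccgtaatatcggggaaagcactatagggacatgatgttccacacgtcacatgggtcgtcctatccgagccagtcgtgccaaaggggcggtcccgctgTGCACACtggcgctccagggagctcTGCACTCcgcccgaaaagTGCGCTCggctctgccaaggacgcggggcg
The Mt2 window also held TTGCNNAA once, beginning at position -12 and overlapping none of the capitals, and the Mt1 window did not. The search for these letters was chosen after the Mt1 and Mt2 levels were seen.

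Lipid genes differed at single members more than as lists. Thrsp, a regulator of lipogenesis, was at 912.0 and 319.5 CPM, and Acacb, the mitochondrial acetyl-CoA carboxylase, at 55.91 and 25.16 CPM. These were the 2 of 17 fatty acid and triglyceride synthesis genes at least 2-fold higher with suffix 1, with none higher with suffix 2 (2.39% and 2.04% of all genes) and a median log2 ratio of 0.234. In members of at most 5% mitochondrial UMIs the list turned, with 1 of 17 genes higher with suffix 1, 6 with suffix 2 (5.4% and 9.21% of all genes) and a median of -0.731. The desaturase gene Scd1 was at 9798 and 10780 CPM and Fasn at 254.0 and 208.6 CPM. Of 9 lipid droplet and uptake genes, G0s2, which encodes the inhibitor of the lipase ATGL (73.47 and 238.7 CPM), and Cd36, a fatty acid carrier (4.586 and 21.7 CPM), were at least 2-fold higher with suffix 2 (2.04% of all genes). Cd36 was at 21.0 and 30.9 CPM in T and B droplets, above the members. Per droplet it had 0.0931 and 0.321 UMIs in members against 0.129 and 0.177 in T and B droplets. Plin2, which coats lipid droplets, was at 241.5 and 447.2 CPM. No gene passed the 2-fold line among 16 of cholesterol synthesis (median log2 ratio, 0.318), 21 of fatty acid oxidation (0.0858), 18 of gluconeogenesis (-0.0122), 21 of the respiratory chain (0.0709), 13 of endoplasmic reticulum stress (-0.412) or 11 immediate early genes (-0.354). For example, Pck1 was at 1633 and 1636 CPM and G6pc at 249.8 and 253.4 CPM.

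Among 35 cytochrome P450 and conjugation genes, 4 were at least 2-fold higher in each library, against 2.39% and 2.04% of all genes (median log2 ratio, 0.17). In members of at most 5% mitochondrial UMIs these counts were 5 with suffix 1 and 10 with suffix 2 (5.4% and 9.21% of all genes), with a median of -0.304. Cyp2d9 (948.5 and 457.7 CPM) and Cyp2c50 (136.2 and 62.31 CPM) were on the suffix 1 side, together with Gstm3 and Sult5a1. Cyp3a25 (62.74 and 160.4 CPM) and Cyp3a11 (15.12 and 44.73 CPM) were on the suffix 2 side, together with Cyp2c68 and Hsd11b1. As a share of UMIs, T and B droplets held more Cyp3a11 than the members, at 34.2 and 91.0 CPM, with a similar ratio between the libraries. Per droplet the members held more, at 0.307 and 0.661 UMIs against 0.21 and 0.522. The Cyp3a11 difference is not read as one between hepatocytes, and its source was not tested. Selenbp2, which binds acetaminophen metabolites, was at 938.8 and 136.1 CPM, and it shares sequence with Selenbp1, as the Cyp2c genes do with each other, so their reads may be split. The list of secreted plasma proteins had 5 of 32 genes at least 2-fold higher with suffix 2 (Apoa4, Serpina6, Serpina1a, Serpina1b and Serpina1e), none with suffix 1, and a median log2 ratio of -0.333. Over all genes these shares were 2.04% and 2.39%. In members of at most 5% mitochondrial UMIs 25 of 32 were higher with suffix 2 and 0 with suffix 1 (9.21% and 5.4% of all genes), with a median of -1.52. Apoa4 was at 134.3 and 384.1 CPM. In the circadian list Dbp (79.62 and 29.69 CPM) and Nfil3 (10.15 and 25.43 CPM), whose products act in opposite directions on shared sites, differed in opposite directions, and the median over 9 genes was 0.686. The hour of collection was not given in the sources used here.

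**Figure D3:**
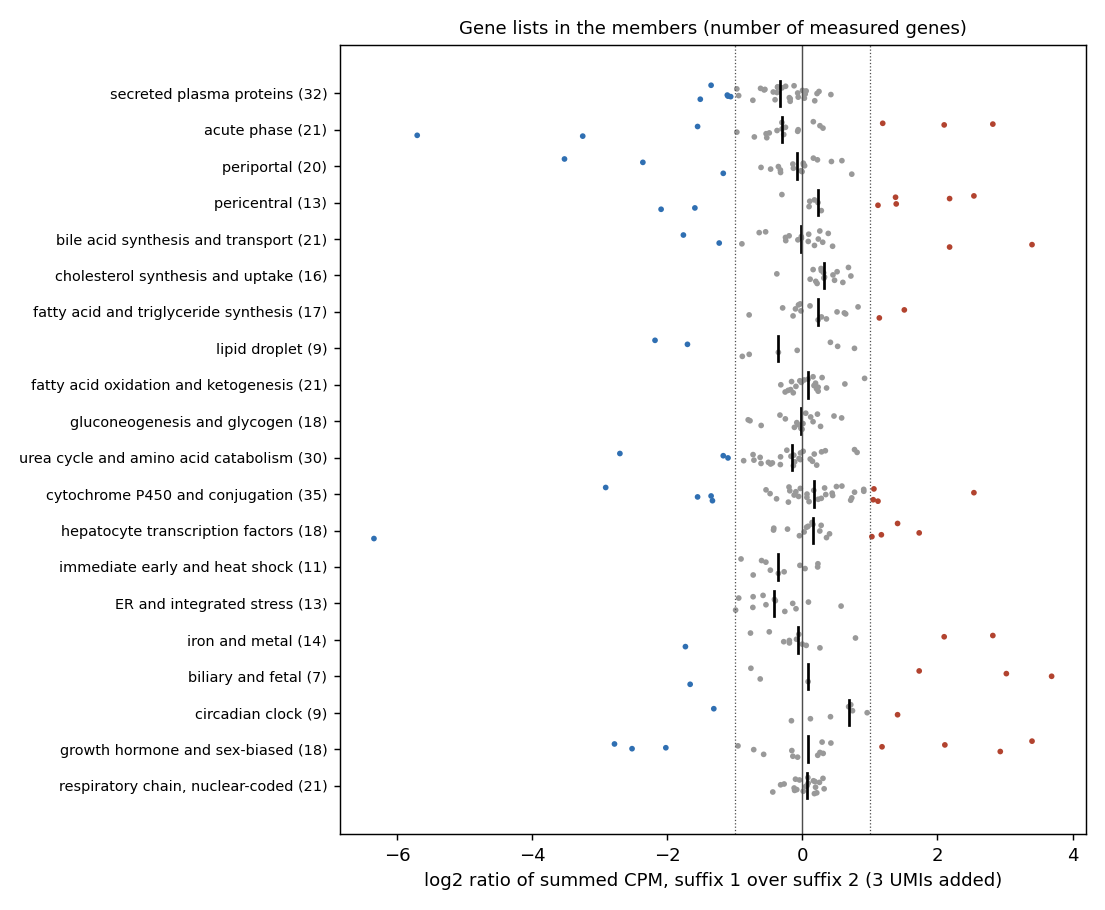
Log2 ratio of summed levels (suffix 1 over suffix 2, horizontal axis) for each measured gene of 20 lists, 1 list per line, with red points at 1 or more, blue points at -1 or less and a black bar at the list median. Medians lie between -0.412 (endoplasmic reticulum stress) and 0.686 (clock), and the points past the 2-fold lines are single genes such as Cebpa, Orm1, Tff3 and Cyp7b1.

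**Figure D4:**
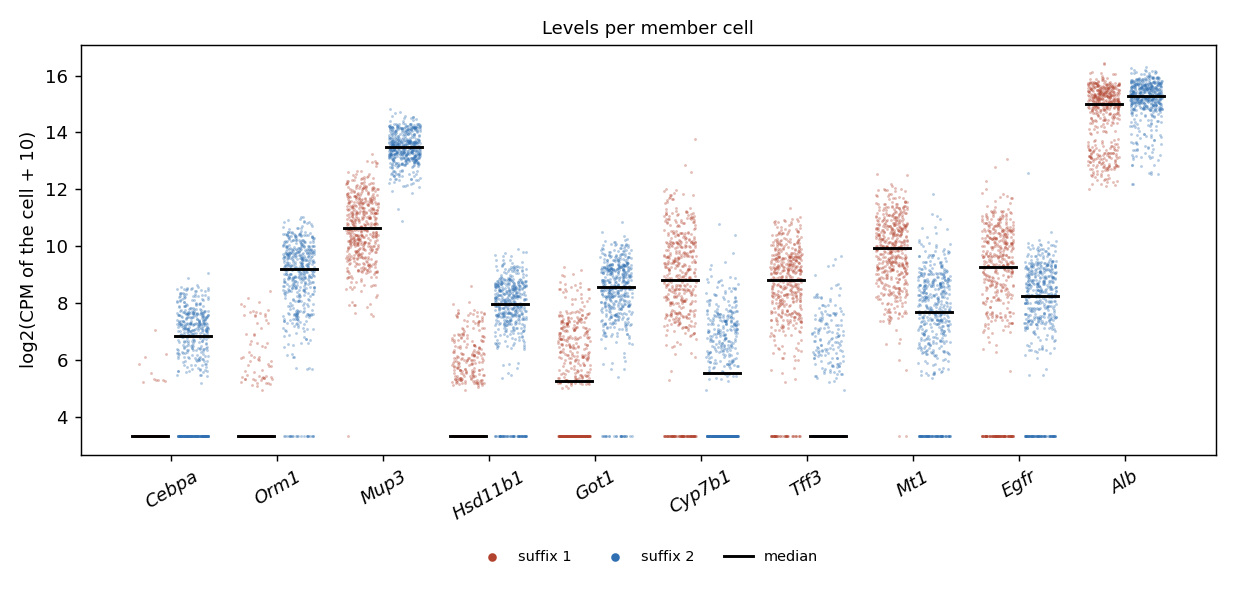
Level of 10 genes in every member, as log2(CPM + 10) on the vertical axis, with suffix 1 in red, suffix 2 in blue and a black bar at the median. For Cebpa and Orm1 the median with suffix 1 is 0 CPM against 103.8 and 572.6 CPM with suffix 2, and for Tff3 it is 433.4 CPM with suffix 1 against 0 with suffix 2, whereas Alb clouds overlap.

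A pair of immunoglobulin genes among the 24 named genes rested on 1 cell. Igkc was at 52.69 and 429.6 CPM and Igha at 12.49 and 128.6 CPM. A single member with suffix 2, of 27487 UMIs, held 2734 of Igkc (84.7% of the sum over members) and 819 of Igha (84.8%), together with 217 of Jchain, and 7.68% of its UMIs came from the 10 hepatocyte genes. Without it, Igkc was at 65.9 CPM and Igha at 19.6 CPM with suffix 2, against 49.1 and 12.5 CPM in the members with suffix 1 other than the one highest in Igkc. Of the 60 named or listed genes that were at least 2-fold different, 10 were higher in CPM in T and B droplets than in the members with both suffixes (Cd36, Ctsc, Cyp3a11, Gpcpd1, Igha, Igkc, Lect2, Mup11, Oat and Socs2). Per droplet the order in the higher library was mixed. Members held more UMIs than T and B droplets for Cd36, Cyp3a11, Gpcpd1 (2.5 against 1.01), Lect2, Mup11, Oat and Socs2, and fewer for Ctsc, Igha and Igkc. The differences of these genes are not read as differences between hepatocytes, and their source was not tested. Apart from Igkc and Igha, the other 22 of the 24 genes stayed at least 2-fold different in the same direction in all 24 settings. These are the main one and 23 alternatives, some of which are described in the closing section. Alternatives that changed only the CPM minimum could not move a ratio.

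The differences in Cebpa, Orm1, Tff3 and Cyp7b1 were also present among members of similar depth. In the bands from 5000 to under 10000, from 10000 to under 20000, and of 20000 or more UMIs there were 164, 91 and 250 members with suffix 1 and 200, 174 and 134 with suffix 2. Of the 36 genes higher with suffix 1, 36, 36 and 32 kept their direction in these bands and 27, 33 and 29 stayed at least 2-fold. Of the 32 higher with suffix 2, 31, 32 and 32 kept their direction and 23, 26 and 31 stayed at least 2-fold.

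Periportal mRNAs stood further above the T and B droplets than pericentral mRNAs did. The summed periportal list had a median of 102 UMIs per 5000 with either suffix (10th to 90th percentile, 76 to 157 and 75 to 129), against 13 and 10 in T and B droplets. The summed pericentral list had medians of 5 and 4 UMIs (2 to 21, and 1 to 14), against 4 and 4 in T and B droplets (1 to 8, and 1 to 8.2). As a share of UMIs the pericentral list was thus close to that of T and B droplets at the median. As UMIs per droplet without thinning it was higher in the members, at medians of 20 and 11 (6 to 53, and 5 to 32.3) against 5 and 5 (2 to 9, and 2 to 9.2), and the periportal list was at 385 and 260 against 16 and 12. Cyp2f2, a periportal cytochrome P450, was at 1947 and 1173 CPM against 312 and 181 in T and B droplets, whereas Cyp2e1, its pericentral counterpart, was at 379.3 and 311.9 CPM against 351 and 446. Per droplet, Cyp2e1 had 7.7 and 4.61 UMIs in the members against 2.16 and 2.55. The Wnt target Axin2 had 2 and 1 UMIs in all members and Lgr5 had 0 and 2. Outside the set, pericentral list levels were higher in some hepatocyte droplets and lower in others. The 7 and 2 droplets that the Glul limit left out had 7545 and 16560 CPM. Levels were at 3463 and 3569 CPM in hepatocyte droplets of 500 to under 5000 UMIs, at 1843 and 3317 CPM in those over the mitochondrial limit and at 829.8 and 505.6 CPM in those that the Spp1 limit left out, against 1385 and 1092 CPM in the members.

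Within the set the zonal lists varied against each other weakly. Across members the thinned periportal and pericentral sums had a Spearman rho of -0.218 with suffix 1 (505 cells) and -0.123 with suffix 2 (508 cells), and Cyp2f2 and Cyp2e1 had -0.0294 and -0.189. These cells share a library and a fixed thinned total, and the values are given as a description. The lists did not hold together well: 10 of 17 periportal genes with suffix 1 and 12 of 18 with suffix 2 had a rho above 0 with the periportal sum, and Cyp2f2 had -0.348 and -0.172. The sums are therefore not read as a zonal axis. Of the pericentral genes 8 of 9 and 5 of 6 had a rho above 0 with the pericentral sum. For each gene of either list, the sum left out that gene. The pericentral list had 5 of 13 genes at least 2-fold higher with suffix 1 (Cyp7a1, Csad, Gstm3, Cyp2c50 and Cyp2c54) and 2 with suffix 2 (Oat and Lect2), with a median log2 ratio of 0.232. Over all genes these shares were 2.39% and 2.04%. In members of at most 5% mitochondrial UMIs the counts were 2 and 1 of 13 (5.4% and 9.21% of all genes), with a median of 0.0599. Csad, the taurine synthesis enzyme, was at 88.5 and 33.68 CPM, and Oat, the ornithine aminotransferase next to the central vein, had 50 and 162 UMIs in all. In T and B droplets Oat (30.8 and 31.7 CPM, against 4.879 and 21.57 in members) and Lect2 (11.3 and 30.1, against 7.221 and 22.23) were higher in CPM than in the members, and Lect2 had a similar ratio between the libraries. Per droplet, members held 0.099 and 0.319 UMIs of Oat against 0.189 and 0.182 in T and B droplets. For Lect2 these values were 0.147 and 0.329 against 0.0693 and 0.172. Of 20 periportal genes, 3 were at least 2-fold higher with suffix 2 (Hal, Ctsc and Hsd17b6) and none with suffix 1, against 2.04% and 2.39% of all genes. Ctsc, a lysosomal protease also made by leukocytes, was at 5.269 and 28.09 CPM in members and at 106 and 118 CPM in T and B droplets.

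The members also differed by their mitochondrial share, and the values fell into a low and a high range, which were separated after they had been seen. At most 5% was found in 143 members (28.3%) with suffix 1 and 122 (24.0%) with suffix 2, more than 10% in 343 and 339, and only 19 and 47 lay between. The low range was shallower, with median depths of 6143 against 27270 UMIs (suffix 1) and 7319.5 against 16385 (suffix 2), and richer in ribosomal protein mRNAs, at 9.45 against 4.99% and 7.38 against 4.88% of UMIs. Levels were then computed per 1000000 non-mitochondrial UMIs. In the low range 416 of 1604 genes (25.9%) were at least 2-fold higher and 387 (24.1%) at least 2-fold lower with suffix 1. With suffix 2 the counts were 78 (5.51%) and 228 (16.1%) of 1415 genes. Of the genes higher in the low range, 77 were shared by both libraries, which is 18.5% of the suffix 1 genes and 98.7% of the suffix 2 genes. Of those lower, 190 were shared (49.1% and 83.3%).

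Single genes differed in the same direction with both suffixes. Rgn, which encodes the calcium-binding regucalcin, was at 1179 against 120.8 per 1000000 with suffix 1 and 715.5 against 217.2 with suffix 2. Akr1c6, a hydroxysteroid dehydrogenase, was at 2885 against 660.5 and 1465 against 537.8. Gnmt, the glycine methyltransferase, was at 7414 against 2217 with suffix 1, and at 4140 against 2154 with suffix 2. In contrast, Alb was lower, at 10900 against 48310 and 30660 against 53930. Apob, which encodes the protein backbone of very-low-density lipoprotein, was at 400.7 against 2879 and 763.7 against 2706. Egfr, a growth factor receptor, was at 145 against 1353 and 175.3 against 528.1. Scd1 was at 2465 against 13000 and 5789 against 14890, and the nuclear non-coding RNA Neat1 at 37.19 against 305.2 and 47.39 against 308.6. The adhesion receptor gene Alcam was at 24.17 against 215.3 and 21.32 against 179.3. Alb, Apob, Egfr, Scd1 and Gnmt were named after their values had been seen, the others by the size of the difference common to both libraries. Secreted plasma protein genes were at least 2-fold lower in the low range for 22 of 31 with suffix 1 and 4 of 31 with suffix 2, against 24.1% and 16.1% of all genes. Fatty acid and triglyceride synthesis genes were lower for 13 and 10 of 15. Urea cycle and amino acid genes were at least 2-fold higher for 5 of 26 and 0 of 27, against 25.9% and 5.51% of all genes. Summed haemoglobin mRNA in the low range rested on few members (Hbb-bs, 5288 against 183.4 and 1340 against 91.02 per 1000000). Without the 3 and 1 members over 5% erythroid UMIs, all in the low range, Hbb-bs was at 108.3 against 183.4 and 351.6 against 91.02. The low range with suffix 2 held 6 members of 20000 UMIs or more, with 22.0% of its UMIs, and that with suffix 1 held 1. Without those 6 members, 114 genes were at least 2-fold higher and 244 lower in the low range with suffix 2, and the secreted genes at least 2-fold lower were 8 of 31 in place of 4. Whether depth or free RNA took part in these differences was not tested.

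**Figure D5:**
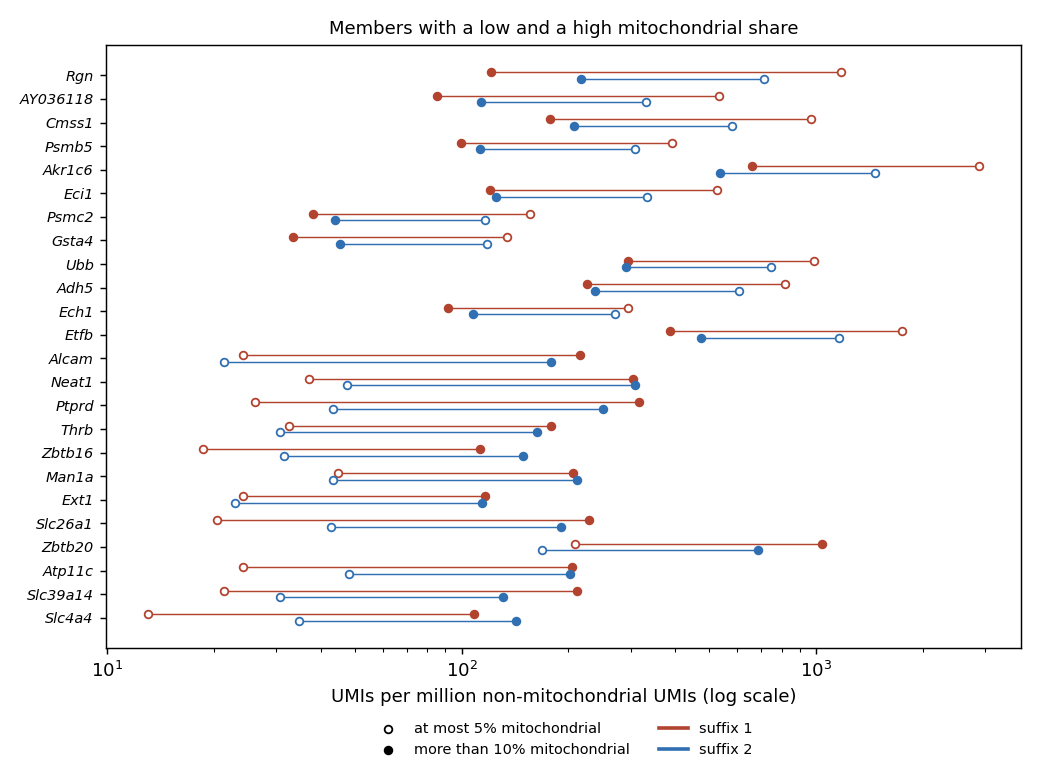
UMIs per 1000000 non-mitochondrial UMIs (log scale) of 24 genes in members of at most 5% (open symbols) and more than 10% (filled symbols) mitochondrial UMIs, with suffix 1 in red and suffix 2 in blue. Rgn and Akr1c6 lie to the right in the low range, whereas Neat1 and Alcam lie to the left, with both suffixes.

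Most differences between the libraries were present in each range. The log2 ratio of Cebpa was -5.2 in the low and -6.2 in the high range, that of Orm1 -5.51 and -5.60, that of Mup3 -2.93 and -2.41, and that of Tff3 3.42 and 3.64. In the low range Cebpa had 0 UMIs with suffix 1 and 127 with suffix 2, so the size of its ratio there is set by the 3 added UMIs. Cyp7b1 was smaller in the low range, at 1.68 against 3.37. Of 52 list genes at least 2-fold different in all members, 47 remained so in the high range and 42 in the low range. The 5 lost in the high range were Cebpg, Foxa2, Serpina1a, Serpina1b and Serpina1e. Those lost in the low range were Steap4, Lect2, Cyp2c50, Cyp2c54, Csad, Akr1d1, Acacb, Cbs, Cyp2d9 and Mup20, of which Steap4 (-0.45), Acacb (-0.18) and Cyp2d9 (-0.08) had the opposite sign there. In the low range the secreted protein list differed more between the libraries than in all members, with 25 of 32 genes at least 2-fold higher with suffix 2 and a median log2 ratio of -1.52. The acute-phase list had 15 of 21 and -1.26, and the endoplasmic reticulum stress list 10 of 13 and -1.25. Medians of the lists of cholesterol synthesis (-0.17), gluconeogenesis (0.0506), urea cycle and amino acid genes (0.0755) and immediate early genes (0.00685) also had the opposite sign to that over all members. Of all 4518 genes, 5.4% and 9.21% were at least 2-fold higher with suffix 1 and suffix 2 in the low range (median log2 ratio, 0.16), and 2.15% and 2.06% in the high range.

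Variation between members beyond counting error, given as the excess squared coefficient of variation at 5000 UMIs, had a median of 0.255 over 1083 genes with suffix 1 and of 0.175 over 1026 with suffix 2. Rgn was among the most variable with both suffixes, at 4.72 and 2.92, as was Saa1, at 2.0 and 4.5. Apoa4 (3.18) and Cyp7b1 (1.82) stood high with suffix 1, and Hamp2, which encodes a hepcidin (4.78), with suffix 2. Malat1 (14.5 and 11.6) and Tmsb4x (12.5 and 17.5) led with suffix 1 and followed Igkc (274, from the cell described above) with suffix 2, and both were abundant in T and B droplets (Malat1, 12400 and 10400 CPM; Tmsb4x, 8100 and 9650 CPM). In contrast, Phlda1 with suffix 1 (0.0657) and Hsd11b1 with suffix 2 (0.0674) varied little between members, so that their levels were spread evenly over the set.

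Markers of other cell types were low in sum apart from erythroid genes. At least 5 UMIs of a marker list of another type (red cell and cycling genes not counted) were found in 33 members with suffix 1 and 56 with suffix 2. Kupffer cell and macrophage markers summed to 70.9 and 132 CPM (397 and 650 in T and B droplets), with 0 of 9 markers at 0 and up to 5200 and 9040 CPM in a member. T and NK cell markers summed to 27.8 and 36.2 CPM and endothelial markers to 26.5 and 53.3 CPM. Cholangiocyte markers summed to 7.12 and 22.4 CPM, with 4 and 3 of 8 markers at 0, and Sox9 was the leading marker. At least 5 erythroid UMIs were found in 246 members with suffix 1 and 71 with suffix 2. Erythroid genes summed to 1220 and 521 CPM and reached 57.4% and 28.9% of UMIs in the highest member, with more than 5% in 3 and 1 members. Doublets were not called.

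Droplets that the Spp1 limit left out had higher Spink1 and Sox9 levels than the members in both libraries. With suffix 1, these 130 droplets had Tff3 at 887.7 CPM, Spink1 at 353.8 CPM, Sox9 at 24.81 CPM and Cebpa at 1.067 CPM, against 615.4, 76.3, 6.342 and 1.073 CPM in the members. With suffix 2, the 11 such droplets had Tff3 at 56.67 CPM (30.17 to 96.9), Spink1 at 87.18 CPM, Sox9 at 91.54 CPM and Cebpa at 113.3 CPM, against 47.4, 9.053, 20.5 and 110.0 CPM in the members. Cebpa was at 0.8352 and 81.3 CPM in hepatocyte droplets of 500 to under 5000 UMIs, so the difference between the libraries was also present below the depth minimum.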

How the data were processed

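Single-cell RNA was captured with 10x 3' chemistry in 2 liver samples, and the authors deposited 1 matrix of UMI counts over 32285 genes and 32316 barcodes, in which suffixes 1 and 2 mark the libraries. Per the labels, the submitters' processing notes name Cell Ranger 7.1.0, bcl2fastq 2.20.0, STAR 2.7.2a and the mm10 build. Cell calling, intron counting and any equalising of depth (not given in the sources used here) set which barcodes and reads entered the table.

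The deposited counts were used as they were. Members were selected by the rule given above, and the rule, the gene lists and the comparisons were chosen with earlier results of these data known. UMIs were summed over members per library and scaled to CPM. With 1 library per suffix and cells that are not replicates, no test was made. Folds used 3 UMIs added to each sum. Genes of at least 100 CPM (lists, 20 CPM) were counted past 2-fold, without mitochondrial, ribosomal protein and rule genes. Of these, the 12 farthest on each side were named after markers of other cell types had been left out. Leading genes by level, spread and list were also named. Cells were thinned to 5000 UMIs for shares and spread. T and B droplets (at least 1000 UMIs, 3 marker UMIs and under 5% of UMIs from the 10 hepatocyte genes, a limit that also caps the free hepatocyte RNA in them) served for comparison. In all, 23 alternatives were tried, 6 of them chosen after seeing the data. Gene positions come from GENCODE vM21 and promoter windows from RefSeq, which held 13 of the 24 named genes. Scripts were tested on simulated data. Python 3.11.15, numpy 2.4.6, scipy 1.17.1, pandas 2.3.3 and matplotlib 3.10.9 were used.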

Additional observations from a re-analysis of the deposited data

Results flagged for a closer look

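The droplets that met every limit of the rule but the mitochondrial one were outside the set, and of the mRNAs that differed most between the libraries 3 were read in them. In the 73 such droplets with suffix 1, Tff3 was at 349.4 CPM and Orm1 at 23.55 CPM. In the 350 with suffix 2, Cebpa was at 31.78 CPM, Tff3 at 9.465 CPM and Orm1 at 473.3 CPM. Each of these sums was above 3 UMIs, the most that a count of 0 would allow, and no control droplets were set beside them. Cebpa had no UMI in these droplets with suffix 1 (exact 95% upper limit, 2.944 CPM), and with suffix 2 it was at 64.3 per 1000000 non-mitochondrial UMIs, against 128.4 in the members. On that scale Orm1 was higher than in the members with both suffixes (36.15 against 13.67, and 957.7 against 714.9). The order of the libraries was that of the members for these 3 genes.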

How the results depend on the processing

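No paired analysis was possible because there is 1 library of each kind. The number of members (suffix 1 and suffix 2) became 920 and 799 at 3000 UMIs, 162 and 169 at a mitochondrial limit of 10%, and 112 and 188 with hepatocyte genes at 10%, and fell to 308 with suffix 2 at 10000 UMIs. Genes at least 2-fold higher with suffix 1 and suffix 2 were 89 and 101 at the 10% limit, 108 and 92 from 20 CPM, and 10 and 5 from 500 CPM. In alternatives chosen after seeing the data they were 94 and 71 in members of 5000 to under 10000 UMIs, and 90 and 139 in those of at most 5% mitochondrial UMIs. The log2 ratio changed sign for Igha (0.0154) and Igkc (0.791) at the 10% limit, for Igkc in the shallow members (0.762), and for Igkc (0.677), Acacb (-0.184), Cyp2d9 (-0.0842) and Steap4 (-0.454) at 5% or less. These are the changes among named or listed genes that were at least 2-fold different in all members. Of all 36 genes of at least 100 CPM higher with suffix 1, 32 kept their direction in members of 20000 UMIs or more. For Igkc and Igha 1 member held most UMIs, and for the others the cause was not tested. Cebpa kept a log2 ratio of -8.53 to -4.77 over all settings, Orm1 -5.97 to -5.10, Tff3 3.39 to 3.86 and Cyp7b1 1.70 to 3.56. With 11 Cebpa UMIs over all members with suffix 1, the size of its ratios depends on the 3 added UMIs. With 1 library each, a difference between the suffixes cannot be told apart from a difference between mice or preparations, and counting intervals cover neither.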
